A study of Mus musculus with 15 samples.

Results

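The 15 libraries of pS6-associated messenger RNA from mouse olfactory epithelium fell into 10 that held transcripts of odorant binding proteins and 5 that held almost none. The split was made on the deposited counts. The counts of Obp1a, Obp1b, Obp2a and Obp2b were summed in each library and scaled, and a library with a sum of 10 CPM or more (CPM is the count scaled to a common library total) was placed with the first kind, called OBP-high here, and the rest with the second, called OBP-low. Since these 4 genes made the split, their levels are a description and carry no test. The split is a measured property of the libraries, not a group of the study.

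The mice were wild-type C57BL/6J males, 8 weeks old, habituated alone in a chamber free of odour for 4 hours and then exposed for 90 min. Control mice faced empty filter paper. The pair acetophenone with decanal was given as A+D or A&D, and octanal with cis-3-hexenol as O+C or O&C, always 10 µL per odorant. A plus sign stands for both odorants on the same paper, and an ampersand for a paper each, about 1 mm apart. Each of the 5 groups held 3 libraries, described as biological replicates, and ribosomes carrying phosphorylated S6 were precipitated with an antibody before the RNA was sequenced, which favours transcripts of recently active neurons.

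OBP-high libraries occurred in every group. They were Control 2 and 3, A+D 1 and 3, A&D 2 and 3, O+C 1, 2 and 3, and O&C 2. The OBP-low libraries were O&C 1, O&C 3, A&D 1, A+D 2 and Control 1. Thus 4 groups held both kinds, with 12 libraries of which 7 were OBP-high, and O+C held 1 kind only, so the O+C libraries add to the estimate of spread but not to the contrast.

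Library totals ran from 22704193 to 25287077 counts, and mature sensory neuron markers summed to 15060 to 29100 CPM in every library, so neurons of the labelled tissue were present. A+D 2 and O&C 1, both OBP-low, stood apart by transcripts of central neurons, 8 genes chosen after their values were seen, at 107 and 224 CPM in sum, against 1.28 to 32.3 CPM elsewhere. Results are therefore also given without this pair, without which edgeR called 0 genes between the kinds (307 higher and 299 lower at an unadjusted p under 0.05, lowest adjusted p 0.266). The labels do not say from which animals or sessions the libraries came beyond the replicate number, and all carry the same batch name.

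Odorant binding proteins are small secreted carriers of the lipocalin family. Lipocalins fold into a barrel that binds small hydrophobic molecules, and in rodents many of them are made by glands of the nasal lining and released into the mucus over the sensory cilia, where odorants and pheromones dissolve. Olfactory sensory neurons themselves are not known as their source. Glands that open into the olfactory mucosa include Bowman glands within the epithelium's own connective tissue and larger glands of the septum and lateral wall, which lie outside the sensory sheet.

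The promoters of 6 lipocalins that separated the libraries are shown because levels of such genes varied in 2 sets, described below, with Obp2a in neither. Each is the RefSeq sequence of build GRCm38.p6, 250 bases ending just before the annotated start and written 5′ to 3′ on the gene's strand, with TATAAA in capitals where it occurs on that strand. The files were made on GRCm39, so these positions apply to GRCm38.p6 only: Obp1a chrX:78091375-78091624 on the minus strand, Obp1b chrX:78186558-78186807 on the plus strand, Obp2a chr2:25699824-25700073 on the plus strand, Obp2b chr2:25736757-25737006 on the plus strand, Lcn3 chr2:25765283-25765532 on the plus strand, Lcn4 chr2:26671283-26671532 on the minus strand.
Obp1a: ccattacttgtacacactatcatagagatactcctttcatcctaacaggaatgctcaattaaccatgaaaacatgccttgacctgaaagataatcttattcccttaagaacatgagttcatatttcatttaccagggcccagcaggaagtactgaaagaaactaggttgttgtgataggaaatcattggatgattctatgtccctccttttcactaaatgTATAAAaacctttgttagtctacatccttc
Obp1b: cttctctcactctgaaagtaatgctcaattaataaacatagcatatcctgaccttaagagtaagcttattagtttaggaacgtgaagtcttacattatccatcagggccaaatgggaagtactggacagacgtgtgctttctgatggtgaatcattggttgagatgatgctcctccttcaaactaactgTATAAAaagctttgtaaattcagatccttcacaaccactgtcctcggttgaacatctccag
Obp2a: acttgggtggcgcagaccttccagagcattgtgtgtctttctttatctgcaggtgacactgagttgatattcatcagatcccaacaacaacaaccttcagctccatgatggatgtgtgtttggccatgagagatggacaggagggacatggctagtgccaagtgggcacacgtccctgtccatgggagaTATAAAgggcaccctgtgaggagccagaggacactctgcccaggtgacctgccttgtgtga
Obp2b: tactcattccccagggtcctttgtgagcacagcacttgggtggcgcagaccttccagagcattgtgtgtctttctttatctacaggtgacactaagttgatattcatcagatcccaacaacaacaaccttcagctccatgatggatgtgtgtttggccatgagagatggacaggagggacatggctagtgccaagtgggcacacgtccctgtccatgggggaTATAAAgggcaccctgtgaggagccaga
Lcn3: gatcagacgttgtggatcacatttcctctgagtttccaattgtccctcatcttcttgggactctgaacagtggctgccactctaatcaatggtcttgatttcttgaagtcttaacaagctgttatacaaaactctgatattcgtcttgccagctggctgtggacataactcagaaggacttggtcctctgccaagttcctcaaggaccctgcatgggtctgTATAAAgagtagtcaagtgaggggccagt
Lcn4: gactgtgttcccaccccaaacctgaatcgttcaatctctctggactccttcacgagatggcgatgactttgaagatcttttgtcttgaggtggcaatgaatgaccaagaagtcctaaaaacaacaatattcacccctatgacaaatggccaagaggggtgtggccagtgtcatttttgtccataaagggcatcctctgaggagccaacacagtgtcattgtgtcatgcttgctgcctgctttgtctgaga

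Counted from the annotated start, TATAAA began at -30 in Obp1a, -28 in Obp2b and -29 in Lcn3, and at -61 in Obp1b and Obp2a. Lcn4 held no match in this window. Obp2a and Obp2b were identical at 214 of 217 aligned positions (98.6%), aligned with their annotated starts offset. Obp1a and Obp1b were identical at 150 of 220 positions (68.2%) and Obp2b and Lcn3 at 149 of 277 (53.8%). Of 23 genes of the secreted group described here, 21 had an entry. TATAAA, searched on both strands, occurred in 9 of the 21 and in 12.4% of all 32851 promoters. CCAAT occurred in 11 of the 21 and in 33.8% of all, AGAACA, a core of hormone receptor elements, in 4 and in 16.1%, and TGTTTAC, a forkhead core, in 0 and in 3.17%. No motif among these 4 contains another, and a match is only a match of letters.

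The sum of the 4 rule genes was 216 to 1322 CPM in the OBP-high libraries (median 600.1), with O&C 2 at 216, O+C 2 at 251 and O+C 3 at 305 at the low end and A&D 2 at 1322 at the top. In the OBP-low libraries it was 0.633 in Control 1, 0.683 in O&C 1, 2.71 in O&C 3, 3.21 in A&D 1 and 3.39 in A+D 2. The nearest libraries on either side of the border, O&C 2 and A+D 2, differed 63.8-fold, so a border at 100 CPM would place every library alike.

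The OBP-low libraries were not empty. Their sums rested on 15 counts in Control 1, 16 in O&C 1, 64 in O&C 3 and 77 each in A+D 2 and A&D 1, or 0.105% to 0.565% of the OBP-high median. The make-up of that remainder differed. Obp1a and Obp1b stood at 1.01 and 0.705 CPM in A+D 2 beside 1.59 for Obp2a, and at 0.169 and 0.127 in O&C 3 beside 2.03 for Obp2a. Intervals on such counts cover counting error only.

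Among the carriers of the rule, Obp2a stood at 109 to 527 CPM in the OBP-high libraries (median 243) and at most at 2.03 CPM in the others. Obp1a stood at 16.9 to 341 CPM (median 141), against 0.171, 0.169, 0.791, 1.01 and 0.295 CPM in O&C 1, O&C 3, A&D 1, A+D 2 and Control 1. Obp1b, its neighbour on the X chromosome, ran from 22.3 to 425 CPM (median 160), and Obp2b from 12.1 to 54.7 CPM (median 26.6). The spread within the OBP-high libraries was 20.2-fold for Obp1a and 19.1-fold for Obp1b, but 4.86-fold for Obp2a and 4.51-fold for Obp2b. All 4 genes had values that were not whole numbers in some libraries, which is taken to mean that reads were shared between near-identical genes, so the division between Obp1a and Obp1b and between Obp2a and Obp2b is uncertain. The same holds for Gm14744, 5430402E10Rik, Gm14743, Gm5938, Mup4 and Mup5.

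**Figure D1:**
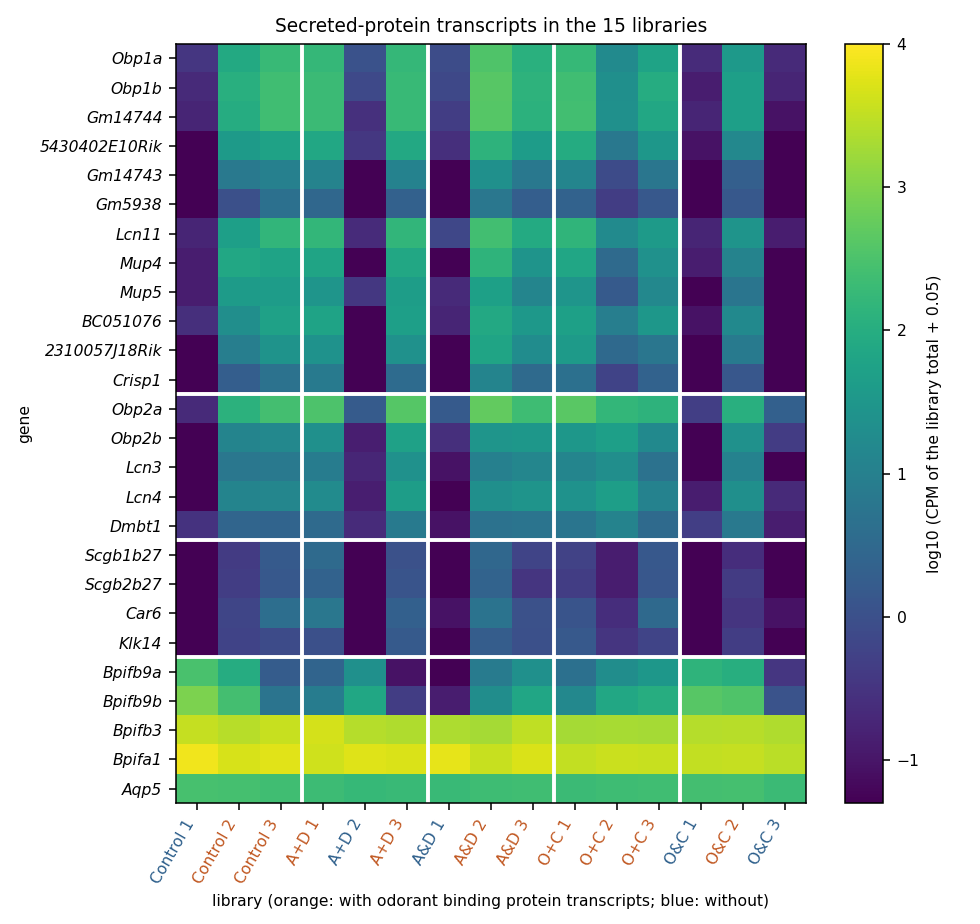
Levels of 26 secreted-protein and gland genes (rows) in the 15 libraries (columns, grouped by exposure), as log10 of CPM plus a pseudocount of 0.05 on a colour scale. The upper 3 blocks of rows are dark in the 5 libraries with blue labels, while Bpifb9a and Bpifb9b in the last block vary without following the labels and Bpifb3, Bpifa1 and Aqp5 are bright throughout.

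All 9 other lipocalins on the list of nasal gland lipocalins followed the rule genes. Each was higher in every OBP-high library than in any OBP-low one, with a median log2 difference of 8.70 (range 7.69 to 10.52) beside -0.01 for all 19225 genes tested. Differences are given on the log2 scale with exposure group in the model. Across all tested genes 22 (0.114%) did not overlap in this direction and 1 (0.0052%) in the other. Genes made by the same cells as the rule genes had to follow the split, so these counts describe how far the group of genes extends.

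Gm14744, a lipocalin gene next to the Obp1 genes, stood at 23.3 to 400.0 CPM in the OBP-high libraries (median 160). It stood at 0.128, 0.0423, 0.416, 0.220 and 0.127 CPM in O&C 1, O&C 3, A&D 1, A+D 2 and Control 1, a log2 difference of 9.54 ± 1.06 (SE, adjusted p = 0.0225, edgeR). The groups do not overlap, and on a log scale the gap between them exceeds the spread within either. Lcn11, another lipocalin, stood at 16.9 to 248 CPM (median 119) and at most at 0.625 CPM, with a log2 difference of 8.67 ± 1.04 (adjusted p = 0.0382, edgeR).

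Lcn3 and Lcn4, known as vomeronasal secretory proteins of glands of the vomeronasal organ and nasal septum, were lower overall but separated as sharply. Lcn4 stood at 11.4 to 47.8 CPM in the OBP-high libraries (median 21.9) and at 0.0854, 0.169, 0, 0.0881 and 0 CPM in O&C 1, O&C 3, A&D 1, A+D 2 and Control 1, on 8 counts in all. Its log2 difference was 8.28 ± 0.70 (SE, adjusted p = 0.00114, edgeR). Lcn3 stood at 4.90 to 23.8 CPM (median 10.6) and at 0 in 3 of the OBP-low libraries, 0.0416 CPM in A&D 1 and 0.132 CPM in A+D 2, and its log2 difference was 8.15 ± 0.72 (SE, adjusted p = 0.00106, edgeR). Both calls were lost when the log2 sum of the rule genes replaced the split in 2 kinds (adjusted p = 0.0603 for Lcn4 and 0.0773 for Lcn3, edgeR).

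The major urinary proteins Mup4 and Mup5, lipocalins that bind pheromones and are made in nasal and other facial glands, were present too. Mup4 stood at 3.37 to 140 CPM in the OBP-high libraries (median 60.8), the widest relative range of these lipocalins at 41.6-fold, and at 0.0844 CPM in Control 1, 0.0854 CPM in O&C 1 and 0 in the other 3. Mup5 stood at 1.53 to 51.2 CPM (median 28.9). Their log2 differences of 10.25 ± 1.49 and 7.69 ± 1.13 missed the threshold over all genes (both adjusted p = 0.12, edgeR), although no libraries overlapped. Among the uncalled lipocalins 5430402E10Rik stood at 6.58 to 135 CPM against at most 0.308 CPM (adjusted p = 0.0586, edgeR).

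A further set of genes was listed at 0 in all 5 OBP-low libraries, so only a lower bound can be given, against a floor of 3 counts over the 5 libraries together. The lipocalins Gm14743 and Gm5938 were at least 350-fold and at least 93.2-fold higher in the OBP-high libraries. 2310057J18Rik, which RefSeq lists under the synonym Leg1, was at least 851-fold higher, at 3.13 to 61.9 CPM (median 21.7). Crisp1, a cysteine-rich secretory protein best known from the epididymis, was at least 161-fold higher. Lipo1, a lipase-family gene, was at least 15.1-fold higher when pooled, but it was also at 0 in the OBP-high libraries A&D 3 and O+C 3 and so overlapped. The secretoglobins Scgb1b27 and Scgb2b27, secreted small proteins, were at least 45.8-fold and at least 38.7-fold higher, and Klk14, a kallikrein-related serine protease, at least 36.1-fold. 2310057J18Rik, Crisp1, Scgb1b27, Klk14 and Lipo1 were singled out after their values were seen.

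Only 7 genes, 0.0364% of those tested, passed the threshold as higher, and all 7 were among the 22. They were Gm14744, BC051076, Lcn11, Lcn4, Lcn3, Klk14 and Dmbt1. These calls are not independent of the split and describe it. All 7 passed the count filter through the OBP-high libraries. In the OBP-low ones Klk14 was at 0, and the rest stood at most at 0.625 CPM (Lcn11 in A&D 1). The same holds for the uncalled lipocalins Mup4, Mup5 and 5430402E10Rik, at most at 0.308 CPM there. Gm14744 is among the genes taken to share reads with near-identical genes. Dmbt1, a mucosal scavenger receptor glycoprotein that binds bacteria, stood at 2.53 to 11.4 CPM (median 5.18) against 0.427, 0.0845, 0.0416, 0.176 and 0.253 CPM in O&C 1, O&C 3, A&D 1, A+D 2 and Control 1, a log2 difference of 4.69 ± 0.49 (SE, adjusted p = 0.00106, edgeR). BC051076, a long noncoding RNA in RefSeq, stood at 9.27 to 79.2 CPM (median 40.9) against at most 0.211 CPM (log2 difference 8.74 ± 0.90, SE, adjusted p = 0.0147, edgeR). No gene passed as lower by edgeR, where 1138 genes were higher and 1179 lower at an unadjusted p under 0.05, and DESeq2 on the same design called 24 higher and 7 lower. The other 15 of the 22 missed edgeR's threshold, genes at 0 in all OBP-low libraries among them.

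The number of calls depended on single libraries. Genes called higher numbered 4 without Control 1, A+D 1 or O&C 1, 3 without A&D 1 or O&C 2, and 12 without O+C 2. Genes called lower appeared in 3 of the fits that left out 1 library, 2 without Control 1 (Ndufs5 and Tyrobp), 2 without O&C 2 (Reg3g and B2m) and 1 without Control 2 (Igkv6-32). Without A+D 2 edgeR called 0 genes in either direction (307 higher and 296 lower at an unadjusted p under 0.05, lowest adjusted p 0.0661), while the log2 difference of Gm14744 was still 9.47 and that of Dmbt1 still 4.65. Of the 22, 17 had a log2 difference over 4 and all 17 are named in this text. The remaining 5, Zfp951, Gm10785, Adat1, Mzt1 and Slc25a53, differed by 0.25 to 0.88, and none of them was called. The only gene lower in every OBP-high library was 1810010H24Rik, at 5.63 against 7.11 CPM on average (log2 difference -0.34, adjusted p = 0.397, edgeR). These 6, and the 5 genes called lower above, were named after their values were seen.

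**Figure D2:**
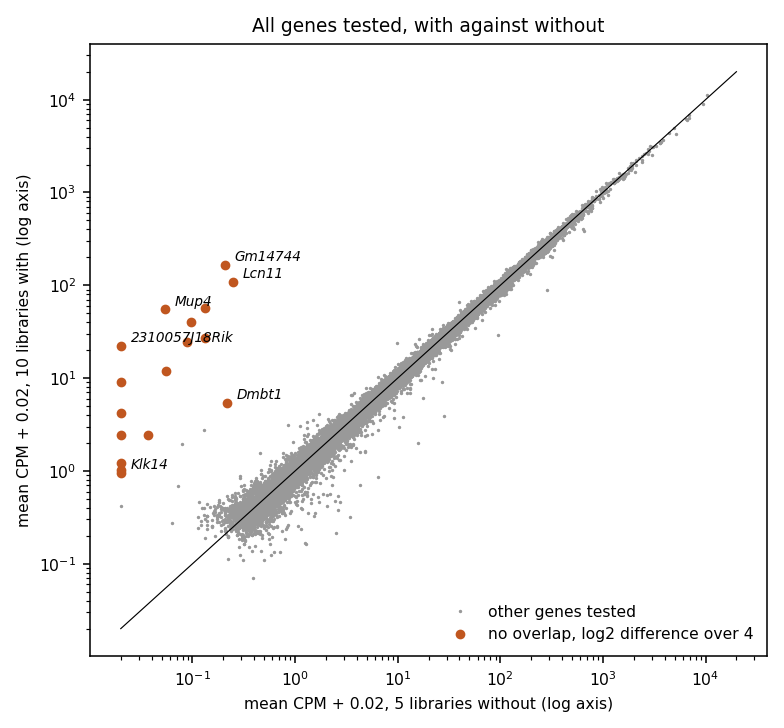
Mean CPM plus 0.02 in the 10 OBP-high libraries against the mean in the 5 OBP-low libraries for the 19225 genes tested, on 2 log axes, with the line of equality. The 17 genes in orange lie far above the line and are separate from the main cloud, which follows the line.

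Some genes that separated the libraries lay next to each other. The ends of each run were chosen from genes already seen to separate, and genes beyond them were not examined. The runs also include the rule genes, whose separation the split fixed. In the order of protein-coding genes of RefSeq GRCm38.p6, 6 consecutive genes on the X chromosome, Gm14744, 5430402E10Rik, Obp1a, Gm5938, Obp1b and Gm14743, all separated the libraries. On chromosome 2 the order was Obp2a, Bmyc, Obp2b, Lcn3 and Lcn11. Bmyc, a Myc-related gene that is no lipocalin, sat inside this run without following it, with a median of 38.0 CPM in the OBP-high libraries and up to 57.4 CPM in an OBP-low one. Scgb2b27 and Scgb1b27 were adjacent on chromosome 7, while 19 protein-coding genes lay between Mup4 and Mup5 on chromosome 4.

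Other fluid and antimicrobial proteins of glands were a mixed group. Of the 17 tested, 1 (Dmbt1) was called and 3 did not overlap, and the median log2 difference was 0.02, close to that of all genes. Car6, the secreted carbonic anhydrase of saliva, stood at 0.201 to 6.29 CPM in the OBP-high libraries and had 2 counts in the 5 OBP-low ones, a pooled ratio of 139 (95% counting interval 38.2 to 1150). Klk1, a glandular kallikrein, and Pip, a secreted protein of exocrine glands, had pooled ratios of 24.0 and 12.9 but overlapped between kinds. Ltf, the iron-binding lactoferrin of exocrine glands and neutrophils, differed by 0.24 ± 0.16 on the log2 scale and was not called (SE, adjusted p = 0.515, edgeR).

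The bactericidal/permeability-increasing fold (BPI-fold) proteins, another family of secreted proteins of the nasal lining that bind lipids, did not follow the split. Of 9 tested 0 were called (0 higher and 1 lower at an unadjusted p under 0.05, edgeR), none separated the libraries, and the median log2 difference was -0.31. Their summed level was 5688 to 10300 CPM in the OBP-high libraries and 5619 to 13320 CPM in the others. Bpifa1, an abundant airway surface protein, stood at 3295 to 5735 and 2876 to 7683 CPM in the 2 kinds.

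Bpifb9a and Bpifb9b, which are related to vomeromodulin, a secreted protein of nasal glands in rodents, were as variable as the lipocalins but on other libraries. Bpifb9b stood at 917.6 CPM in Control 1, 429 CPM in O&C 1 and 72.6 CPM in A+D 2, all OBP-low, and at 1.099 CPM in O&C 3 and 0.0833 CPM in A&D 1, OBP-low as well. Among OBP-high libraries it ran from 0.414 CPM in A+D 3 to 342 CPM in O&C 2. Its log2 difference was -1.23 ± 1.78 (SE, adjusted p = 0.775, edgeR), and Bpifb9a followed the same libraries, from 0 in A&D 1 to 307 CPM in Control 1. Both genes had whole values in 1 library only, taken as above to mean shared reads, so their agreement is not independent. High and low libraries of this pair occurred within both kinds.

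Markers of gland cells as such did not separate the libraries either. Of 16 tested genes for acinar identity and secretion 0 were called, with a median of 0.05 (2 higher and 0 lower at an unadjusted p under 0.05, edgeR). Of 10 Bowman gland markers 0 were called, with a median of 0.02 (0 higher and 2 lower). Of 11 duct and myoepithelial genes, Klk1 among them, 0 were called, with a median of -0.17 (1 higher and 2 lower). Only 0.0364% of all genes were called higher, so lists this short say little by holding no call. Aqp5, the water channel of serous cells, stood at 197 to 272 CPM in the OBP-high libraries and at 262, 202, 194, 175 and 291 CPM in O&C 1, O&C 3, A&D 1, A+D 2 and Control 1. Xbp1, a transcription factor of secretory cells, stood at 160 to 202 CPM and 129 to 214 CPM. The kinds overlapped for both genes. Since none of these lists separated the libraries, the libraries are named for the odorant binding proteins and not for a gland. In RNA precipitated from tissue, fewer cells of a kind, less RNA per cell and a smaller share precipitated cannot be told apart.

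Within the OBP-high libraries the genes formed 2 sets, chosen after their values were seen and given as a description across 10 libraries that also share their totals. The first held Obp1a, Gm14744, 5430402E10Rik, Gm14743, Gm5938, Lcn11, Mup4, Mup5, BC051076, 2310057J18Rik and Crisp1, whose correlation with Obp1b was r = 0.915 to 0.994 (Spearman 0.758 to 1.0). Leaving out the 2 libraries farthest from the median of Obp1b, it was 0.635 to 0.990. Obp1a, Obp1b, Gm14744, 5430402E10Rik, Gm14743, Gm5938, Mup4 and Mup5 are taken to share reads, so their correlations are not independent. Members with whole values throughout, Lcn11, BC051076, 2310057J18Rik and Crisp1, had r = 0.949 to 0.969 (0.898 to 0.962 without the 2 farthest). Exposure group was not removed from any of these correlations. The second held Lcn3, Lcn4 and Dmbt1, which followed Obp2b at r = 0.900 to 0.973 (0.904 to 0.972 without the 2 farthest). Between sets, the first and Obp1b together ran at -0.34 to 0.05 with Obp2b (-0.559 to -0.186 without the 2 farthest libraries), and the second and Obp2b together at -0.51 to -0.17 with Obp1b. The latter turned to 0.289 to 0.387 without the 2 farthest libraries, so that sign rests on those 2.

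Levels show the same. The sum of Obp1a and Obp1b was lowest in O+C 2 at 39.1 CPM, where that of Obp2b, Lcn3 and Lcn4 was 118 CPM, next to the highest. In A&D 2 they were 766 and 60.8 CPM, and in A+D 3, which had the highest second sum, 355 and 124 CPM. The ratio of the 2 sums ran from 0.331 in O+C 2 to 12.6 in A&D 2. Obp2a had r = 0.787 with Obp1b (Spearman 0.867, r = 0.895 without the 2 farthest libraries) and 0.414 with Obp2b (Spearman 0.442, r = 0.131 without the 2 farthest). Its count ratio to Obp2b, with which it shares reads and nearly all of its promoter window, ran from 3.26 in O+C 2 to 18.2 in A&D 2. Car6 followed Scgb1b27 and Scgb2b27 at r = 0.987 and 0.938, and Obp1b at 0.815 (0.504 without the 2 farthest libraries).

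**Figure D3:**
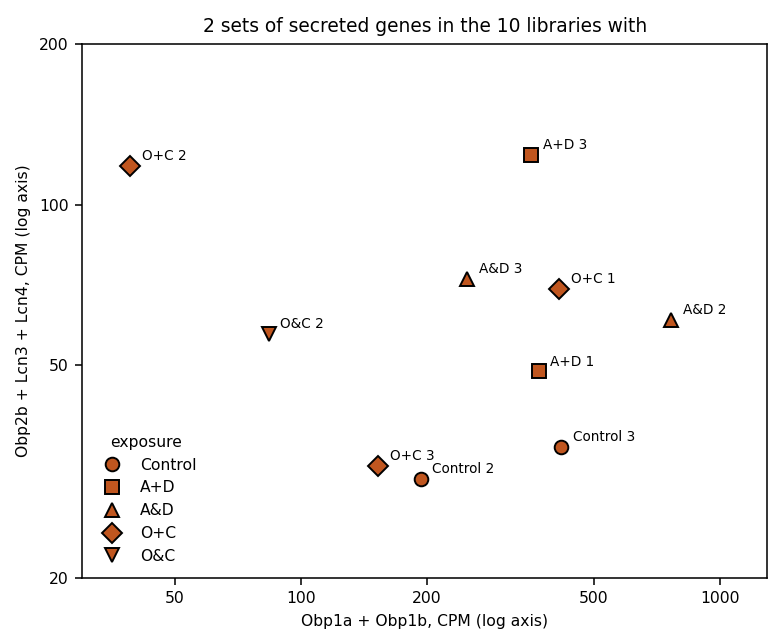
Summed CPM of Obp2b, Lcn3 and Lcn4 against that of Obp1a and Obp1b in each of the 10 OBP-high libraries, on 2 log axes, with exposure as the symbol. O+C 2 lies at the left with 39.1 and 118 CPM and A&D 2 at the right with 766 and 60.8 CPM.

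Cell types other than glands were compared between the kinds by their listed markers. None of the lists, from sustentacular cells (17 tested, median 0.02) and mature sensory neurons (21, median 0.10) to respiratory ciliated cells (20, median -0.06) and fibroblasts (9, median -0.02), held a called gene. Over all genes only 0.0364% were called higher, so lists this short say little by holding no call. Respiratory secretory and goblet cell genes (11 tested, median -0.21) had 1 higher and 5 lower at an unadjusted p under 0.05 (edgeR). Of all 19225 genes 1138 were higher and 1179 lower at that level, and 9343 had a positive difference. Of 10 markers of vomeronasal sensory neurons 5 were tested (median -0.08), and of 325 vomeronasal receptors 4 (median -0.38), with none called. Whether Lcn3 and Lcn4 came from vomeronasal tissue was not tested. The immune lists held no called gene either. Plasma and B cell genes were positive in 6 of 13 cases (median -0.10, 0 higher and 3 lower at an unadjusted p under 0.05, edgeR). Immunoglobulin genes were positive in 11 of 21 (median 0.02, 1 higher and 1 lower) and T and NK cell genes in 2 of 7 (median -0.43, 0 higher and 2 lower). All 14 macrophage and dendritic cell genes had a negative difference (median -0.29) and 11 of 12 neutrophil genes did (median -0.40), with none called (lowest adjusted p 0.397 in both, edgeR). At an unadjusted p under 0.05, 0 of these macrophage and dendritic cell genes were higher and 5 lower, and 0 of the neutrophil genes higher and 6 lower (edgeR). The macrophage median was -0.16 without Control 1, -0.17 without A+D 2, -0.18 without A&D 1 or A&D 3 and -0.60 without O&C 2. The summed macrophage and dendritic cell level was 810 to 1471 CPM in the OBP-high libraries and 678, 790, 2150, 1362 and 2040 CPM in O&C 1, O&C 3, A&D 1, A+D 2 and Control 1. Control 1 and A&D 1 lay above all OBP-high libraries, A+D 2 within their range and O&C 1 and O&C 3 below it. Within its own group A+D 2 lay above A+D 1 and A+D 3 (1010 and 1132 CPM). O&C 1 and O&C 3 lay below O&C 2 (1108 CPM). The part of these cells in the other results was not tested.

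**Figure D4:**
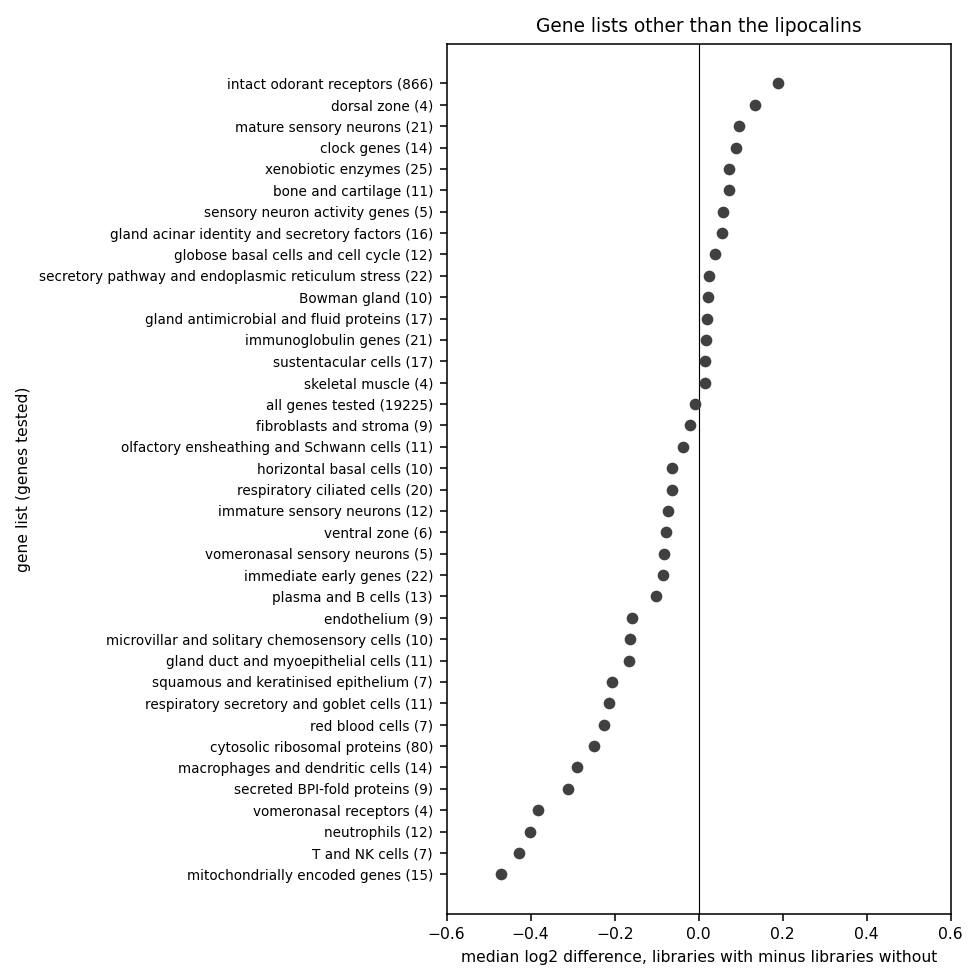
Median log2 difference, OBP-high minus OBP-low, of each gene list and of all genes tested, with the number of genes tested in parentheses. Apart from the lipocalin list, which stands at 8.70 and is left out, the medians lie between -0.47 and 0.19.

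Odorant receptors were tested as a list of 866. Of these 643 had a positive difference and the median was 0.19, none was called, and 78 were higher and 2 lower at an unadjusted p under 0.05 (lowest adjusted p 0.397, edgeR). Of all 19225 genes tested, 9343 had a positive difference, and 1138 were higher and 1179 lower at that level. The median was 0.08 without A+D 2 and O&C 1 and 0.30 without A&D 1. Receptors made up 0.350% to 0.573% of the counts in the OBP-high libraries (median 0.454%) and 0.423% in O&C 1, 0.569% in O&C 3, 0.467% in A&D 1, 0.320% in A+D 2 and 0.309% in Control 1. The OBP-high libraries were higher on average in all 4 groups that held both kinds, by 0.0574 percentage points. This did not pass an exact permutation test within groups (two-sided p = 0.1111, adjusted over 6 measures 0.2963). The smallest possible p was 0.0123 over 81 arrangements, so after adjustment no single measure could have passed 0.05 on its own. A failure to pass therefore says little.

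Of 80 ribosomal protein genes, 79 had a negative difference, with a median of -0.25, and none was called (4 lower at an unadjusted p under 0.05, lowest adjusted p 0.397, edgeR). Among all 19225 genes 9343 had a positive difference and 1179 were lower at that level. The median was -0.01 without A+D 2, 0.01 without A+D 2 and O&C 1, and -0.45 without Control 1. Ribosomal proteins made up 2.13% of the counts of A+D 2 and 0.889% to 1.495% of those of all others. All 15 mitochondrially encoded genes tested had a negative difference (median -0.47, none called). That median was -0.20 without A&D 1, -0.31 without A+D 2, -0.28 without A+D 2 and O&C 1, -0.71 without Control 1 and -0.21 by DESeq2. These genes made up 0.196% of the counts in A+D 2, 0.202% in A&D 1 and 0.0497% to 0.126% elsewhere. The within-group differences of -0.218 and -0.0412 percentage points had exact two-sided permutation p = 0.1975 and 0.0988 (both 0.2963 after adjustment). Total count, genes detected and red blood cell transcripts had exact permutation p = 0.1605, 0.6543 and 0.4074.

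**Figure D5:**
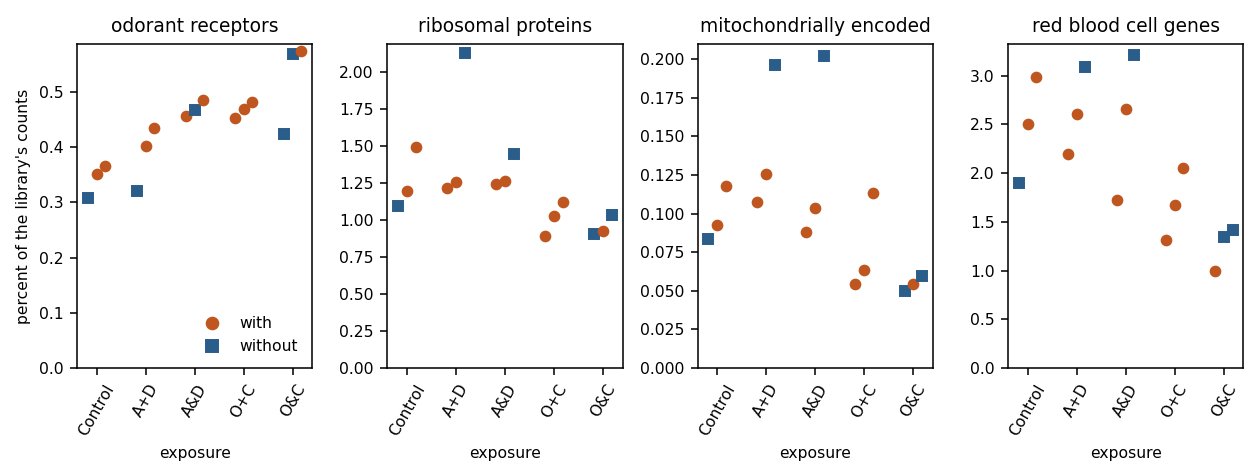
Percent of each library's counts in odorant receptors, ribosomal proteins, mitochondrially encoded genes and red blood cell genes, by exposure, with OBP-high libraries as orange circles and OBP-low ones as blue squares. A+D 2 stands at 2.13% for ribosomal proteins, and A+D 2 and A&D 1 at 0.196% and 0.202% for mitochondrial transcripts.

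Exposure comparisons were run with and without the split in the model, all sharing the same Control libraries. With the split, A+D had 46 receptors that rose, A&D had 89, O+C had 97 and O&C had 136, where 0.302%, 1.1%, 5.94% and 9.89% of all genes rose. In turn 0, 0, 40 and 55 receptors fell, where 0.052%, 0.0416%, 2.43% and 6.16% of all genes fell (edgeR). Without the split the rises were 46, 89, 98 and 134 (0.296%, 1%, 5.74% and 9.33% of all genes) and the falls 0, 0, 32 and 71 (0.026%, 0.0208%, 2.35% and 5.41%). Receptors called in both models numbered 45, 88, 124 and 181. The count of rises moved by at most 2 in any group.

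The count of falls depended on single libraries. Fits that lowered it are listed here, while others raised it, as the ranges in the closing section show. A fit with 1 library fewer in a compared group also has less power. In O+C the 40 falls became 14 without Control 2, 14 without Control 3, 26 without A&D 3, 10 without O+C 1 and 20 without O+C 3. In O&C the 55 became 26 without Control 2, 17 without O&C 1, 34 without O&C 2 and 29 without O&C 3.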

How the data were processed

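The authors deposited expected counts, the fractional gene estimates of a quantifier, for 15 libraries. STAR 2.7.10b, Salmon 1.10.1, R 4.4.2 and build GRCm39 are named, without their roles, in the submitters' processing notes. The annotation and the strand setting are not given in the sources used here. Of 57010 gene identifiers 52029 had a symbol.

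Counts were rounded. Per-library levels (CPM) are counts scaled to a common library total, without trimmed-mean scaling. Genes were kept by filterByExpr with a minimum count of 10 (19229 genes), and the 4 rule genes were left out of the tests, which left 19225. The fit was edgeR 4.0.16 (R 4.3.3), robust quasi-likelihood F test, with trimmed-mean scaling and exposure group plus the split as terms, over all 15 libraries. Adjustment was Benjamini-Hochberg over those genes, the threshold was 0.05, and all tests were two-sided. Alternatives used DESeq2 1.42.0, other scaling, filters, covariates and fewer libraries. Library measures were compared by exact permutation within exposure groups. The fit was tested on simulated data. Named genes were the largest differences past the threshold that kept their sign in each group holding both kinds, and the highest members of each list. Gland list members at 1 CPM or more could all be named. The members and lists were chosen with earlier results of these data known, and the libraries were split by a measured value, so no p-value here is independent of that choice. P-values measure the spread between these libraries.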

Additional observations from a re-analysis of the deposited data

Results flagged for a closer look

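Obp1a stood at 340.7 CPM in A&D 2, farther from the other OBP-high libraries than their spread would give by Dixon's criterion. Of 23 sets of values tested in this way this was the only one, and chance picks out about 1 in 20.

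In several library measures the OBP-high libraries lay above the OBP-low ones in Control and below them in another group, or the other way round, and these differences between groups were not tested. Genes detected differed by 116 in Control, by 229.5 in A+D and by -278.5 in A&D. Ribosomal proteins differed by 0.253 percentage points in Control, -0.889 in A+D and -0.195 in A&D. Mitochondrially encoded genes differed by 0.0217 percentage points in Control, -0.0796 in A+D and -0.106 in A&D. Red blood cell genes differed by 0.853 percentage points in Control, -0.689 in A+D, -1.03 in A&D and -0.380 in O&C. Each group holds only 1 or 2 libraries of a kind.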

How the results depend on the processing

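Against 7 genes higher and 0 lower, 24 and 7 were called by DESeq2, 142 and 289 without a count filter, 14 and 0 with the log2 sum of the 4 rule genes as a continuous covariate (5 of the 7 remained, without Lcn3 and Lcn4), 12 and 0 without the exposure covariate and 11 and 0 in the groups holding both kinds. Without A+D 2 and O&C 1 the count was 0 higher, an alternative chosen after seeing the data. Leaving out 1 library at a time gave 0 to 12 higher and 0 to 2 lower. With RLE scaling or a split at 100 CPM the same 7 genes were called, and with the replicate block 7, again the same. With genes of whole values only, which leaves out Gm14744, 7 were called, 6 of them the same, with Gmnc added. Under the replicate block the ribosomal protein median was -0.39 and that of the lipocalins 9.83. The replicate numbers did not pair the libraries (correlations of same-numbered libraries -0.331 to 0.144, 3 of 30 over 0.1). For receptors, leaving out 1 library gave 36 to 55 higher and 0 to 2 lower in A+D, 72 to 92 and 0 to 1 in A&D, 74 to 101 and 10 to 47 in O+C, and 117 to 140 and 17 to 69 in O&C. Without the pair, falls numbered 1 in A&D and 34 in O&C. Among library measures, the difference in genes detected was -1.33 without O&C 3 (range -1.33 to 186.8), and that in ribosomal proteins was 0.00549 percentage points without A+D 2 and 0.0278 without the pair (range -0.375 to 0.00549). The total count difference ranged from 495500 to 950500, receptors from 0.0414 to 0.0752, mitochondrial genes from -0.0622 to -0.0194 and red cell genes from -0.698 to -0.0720 percentage points. The cause was not tested. Low counts limit the OBP-low libraries, where 3 counts over the 5 together are 0.0255 CPM.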
